A study of Homo sapiens with 4 samples.

Results

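Desmosomes are the spot-like junctions that tie the keratin filaments of neighbouring epithelial cells together. Their cadherins, the desmocollins and desmogleins, meet between the cells. Inside the cell plakoglobin and the plakophilins bind the cadherin tails, and desmoplakin links that plaque to keratin. In the epithelial-to-mesenchymal transition (EMT), epithelial cells give up such junctions and gain motility. The 10 genes described here were taken by name from the count tables, out of 19577 genes listed in any plate: the desmocollins DSC2 and DSC3, the desmogleins DSG2 and DSG3, desmoplakin (DSP), plakoglobin (JUP), the plakophilins PKP1, PKP2 and PKP3, and PERP, a tetraspan membrane protein required for stable desmosomes in stratified epithelia. All 10 were listed in all 4 plates, and 9 had enough transcripts to be followed from cell to cell.

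The cells were MCF10A, an untransformed human mammary epithelial line, carrying a GFP marker. Patches seeded from 10000 cells grew for 6 days on fibronectin-coated glass and were phototagged, that is, marked with photoactivatable dyes in rings, before single cells were sorted into 384-well plates. In the low-resolution experiment (2 plates) the rings were 1000 to 1500 µm wide. In the high-resolution experiment (2 plates) the outermost 2 bands were 250 µm wide each. All 4 plates hold the same line under the same culture, and the labels name no other treatment. They do not give the ring of a well, so rings are not compared and the plate is the replicate.

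Of 1536 wells, 1146 passed the filters, with a median of 30520 to 41248 transcripts per cell. The label of a mammary epithelial line was checked against marker genes. The basal keratin KRT5 was found in at least 99.6% of cells of each plate and the luminal keratin KRT8 in at least 98.3%. Of the other basal markers, KRT17, ITGA6 and ITGB4 were found in at least 84.5% and KRT14 in at least 43.9%. The basal regulator TP63 was near 0 (0.00944 counts per 10000). Of the other luminal markers, MUC1 was found in at least 95.2%, KRT18 in at least 77.3% and KRT19 in at least 11.7%. ESR1 and PGR were near 0 (0.0066 and 0.000232 counts per 10000). Summed levels of 6 fibroblast genes ran from 0.0728 to 0.148 counts per 10000, of 4 leukocyte genes from 0.0786 to 0.122 and of 3 endothelial genes from 0.131 to 0.225. The endothelial sum was mostly PECAM1, found in at least 28.5% of cells of each plate. All plates used the same 384 well barcodes. Wells with the same barcode in different plates had a mean correlation of 0.0036 to 0.0569 over genes (centred log values), and wells with different barcodes had one of 0.000141 to 0.00206. The largest value joined the high-resolution plates.

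Each cell was placed on an EMT score, the study's gene set variation score of a list of mesenchymal genes minus that of a list of 65 epithelial genes. None of the 10 desmosome genes is in either list (0 of 10). A gene was counted as falling along the score where its Spearman rho with the score was at or under -0.3 in all 4 plates, and as rising where rho was at or over 0.3 in all 4. This correlation across cells is a description: gene and score come from the same libraries and share their depth.

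Of the desmosome genes 4 lie in a cluster of desmosomal cadherin genes on chromosome 18. In GENCODE v29 (GRCh38) DSC3 spans 30990008 to 31042815 and DSC2 31058840 to 31102522, both on the minus strand, and DSG3 spans 31447795 to 31478702 and DSG2 31498043 to 31549008, both on the plus strand. The 4 cadherin genes thus fit within 559 kb, yet, as described below, DSC2 and DSG3 fell along the EMT score whereas DSC3 and DSG2 did not meet the rule. For that contrast the 250 bases before each annotated start are shown from RefSeq (GRCh38.p14), together with those of PERP, the member with the lowest rho. Capitals mark matches on either strand to the E-box (CAGGTG), the AP-1 motif (TGANTCA) or the GC box (GGGCGG).
DSC2, upstream start, chr18:31102422-31102671, minus strand: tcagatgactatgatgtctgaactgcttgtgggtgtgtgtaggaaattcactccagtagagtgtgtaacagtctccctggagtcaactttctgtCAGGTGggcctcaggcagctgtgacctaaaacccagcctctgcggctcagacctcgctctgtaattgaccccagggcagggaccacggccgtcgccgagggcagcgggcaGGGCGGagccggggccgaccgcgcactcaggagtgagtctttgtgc
DSC2, downstream start, chr18:31101261-31101510, minus strand: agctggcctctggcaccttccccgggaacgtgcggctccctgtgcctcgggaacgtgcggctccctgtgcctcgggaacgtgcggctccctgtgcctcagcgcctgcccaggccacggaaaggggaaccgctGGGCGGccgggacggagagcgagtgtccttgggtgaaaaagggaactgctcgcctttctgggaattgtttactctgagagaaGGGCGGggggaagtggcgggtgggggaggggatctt
DSG3, chr18:31447491-31447740, plus strand: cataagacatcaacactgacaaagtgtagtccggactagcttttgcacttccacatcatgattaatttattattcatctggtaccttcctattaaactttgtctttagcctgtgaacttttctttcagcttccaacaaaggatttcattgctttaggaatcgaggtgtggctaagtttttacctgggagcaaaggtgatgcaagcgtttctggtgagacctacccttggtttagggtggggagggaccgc
PERP, chr6:138107420-138107669, minus strand: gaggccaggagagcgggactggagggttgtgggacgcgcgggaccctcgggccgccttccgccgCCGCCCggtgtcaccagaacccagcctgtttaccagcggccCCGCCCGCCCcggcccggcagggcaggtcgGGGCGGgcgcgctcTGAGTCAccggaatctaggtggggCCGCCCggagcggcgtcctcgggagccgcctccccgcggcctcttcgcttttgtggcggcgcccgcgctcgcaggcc
DSC3, chr18:31042743-31042992, minus strand: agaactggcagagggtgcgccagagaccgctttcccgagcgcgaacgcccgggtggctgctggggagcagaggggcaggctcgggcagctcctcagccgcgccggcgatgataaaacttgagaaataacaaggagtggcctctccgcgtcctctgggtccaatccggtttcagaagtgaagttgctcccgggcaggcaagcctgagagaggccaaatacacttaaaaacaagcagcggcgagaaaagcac
DSG2, chr18:31497927-31498176, plus strand: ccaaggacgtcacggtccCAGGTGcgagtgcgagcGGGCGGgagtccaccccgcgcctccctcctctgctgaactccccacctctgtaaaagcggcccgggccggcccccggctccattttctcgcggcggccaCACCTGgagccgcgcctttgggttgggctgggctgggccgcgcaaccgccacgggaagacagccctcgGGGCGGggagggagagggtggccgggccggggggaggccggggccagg

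Promoter windows (250 bases before to 50 after the start) were matched for 8 of the 10 genes. They were not matched for PKP2 and PKP3. The E-box CAGGTG is the core bound by the repressors of CDH1 in EMT. It was found for 4 of the 8 genes: DSC2 (at the upstream start), DSP, JUP and DSG2. By window, 4 of the 10 windows of these genes held it, and 20.6% of 35116 windows of the same length did. Of the 5 matched genes that fell along the score, 3 had the E-box (DSC2, DSP and JUP), and DSG3 and PERP had none. Among the matched genes that did not fall, DSG2 had 2 matches, and DSC3 and PKP1 had none. A link between the motif and the fall was not tested. The GC box was found in 7 of the 10 windows, for 6 genes, against 44.95% of all windows, and its matches in DSP and PERP partly overlap each other. The AP-1 motif was found in 1 of the 10 windows, that of PERP, against 7.71% of all windows, and the grainyhead (GRHL) motif in 0 of 10, against 0.134%. A match is a string of letters and says nothing of binding.

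The desmosome genes differed widely in level. The method counts molecules from their 3′ ends, so levels are given as counts per 10000 transcripts of a cell and were not divided by length. The membrane protein gene PERP led with 7.47 ± 2.14 (SD, n = 4 plates), followed by desmoplakin DSP with 4.73 ± 1.56 and plakoglobin JUP with 2.04 ± 0.254. Among cadherins the order was DSG2 (1.29 ± 0.185), DSG3 (1.09 ± 0.446), DSC2 (0.827 ± 0.309) and DSC3 (0.503 ± 0.0279). Plakophilins were lowest, with PKP2 at 0.339 ± 0.0203 and PKP3 at 0.293 ± 0.0554. The plate ranges overlapped between PERP and DSP, DSG2 and DSG3, DSG3 and DSC2, and PKP2 and PKP3, so the order of those neighbours is not set.

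**Figure D1:**
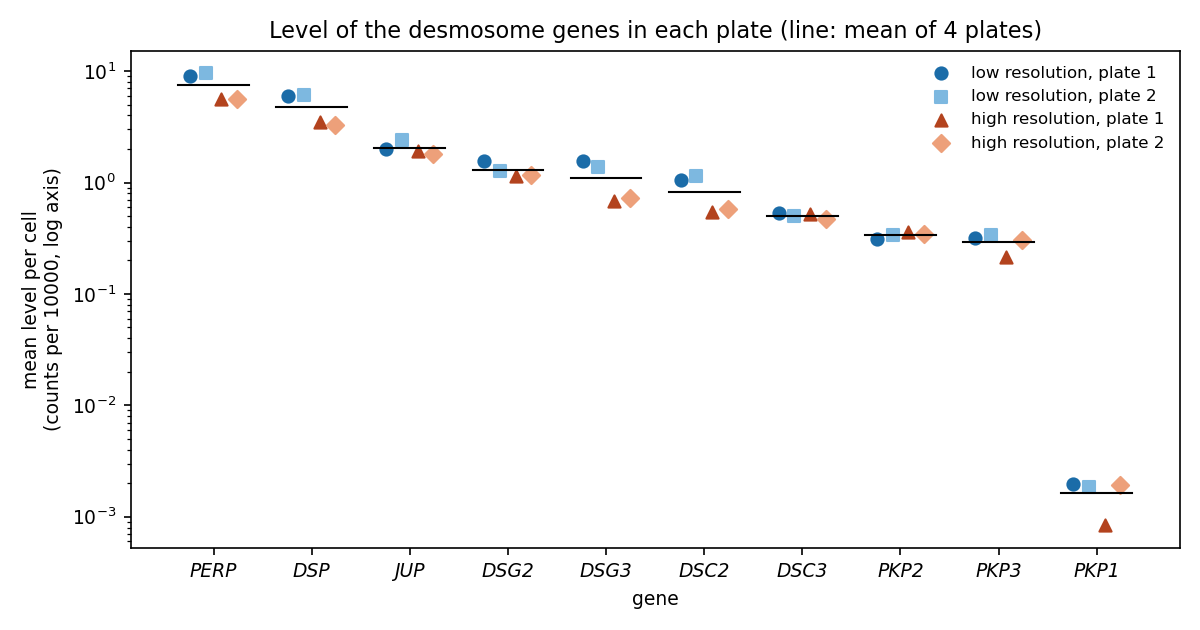
Mean level of each desmosome gene per plate (counts per 10000 transcripts of a cell, log axis), with circles and squares for the low-resolution and triangles and diamonds for the high-resolution plates and a line for the mean of 4 plates. PERP and DSP are the most abundant, and PKP1 lies near 0.00165. The high-resolution plates sit below the low-resolution plates for PERP, DSP, JUP, DSG2, DSG3, DSC2 and PKP3. They sit above them for PKP2 and overlap them for DSC3.

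PKP1, the plakophilin of the upper layers of stratified epithelia, was almost absent. It had a transcript in 8 of 1146 cells (0.698%, exact 95% binomial interval 0.302 to 1.37). Intervals of this kind cover counting error only. PKP1 is therefore left out of what follows, except where all 10 genes are named.

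When every cell was thinned to 10000 transcripts, which 1130 cells reached, a transcript of PERP was seen in 96.8% of cells on average over plates, of DSP in 90.2%, of JUP in 76.2%, of DSG2 in 69.5%, of DSG3 in 53.7%, of DSC2 in 40.3%, of DSC3 in 37.4%, of PKP2 in 24.9% and of PKP3 in 23.6%. Before thinning, these shares ran from 56.6% (PKP2) to 100% (PERP). The ratio of variance to mean over thinned cells was 5.20 ± 0.618 for PERP, 4.31 ± 0.659 for DSP and 2.21 ± 0.258 for DSC2, and under 2 for the other 6 genes, the lowest being PKP3 at 1.14. A cell held transcripts of 7 of the 10 genes at the median in every plate before thinning.

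Along the EMT score, the desmosome genes split. Of the 9 genes tested 6 fell, PERP, DSC2, DSG3, DSP, JUP and PKP3, and 0 rose. Of all 7959 genes tested 2.41% fell and 2.32% rose. The median of the mean rho was -0.674 over the 9 genes and 0.0169 over all genes tested. Those that fell include members of every layer of the junction: 1 desmocollin, 1 desmoglein, plakoglobin, 1 plakophilin and desmoplakin, with PERP. DSG2, DSC3 and PKP2 did not meet the rule.

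PERP had the lowest rho of the members. In the order low-resolution plates 1 and 2, high-resolution plates 1 and 2, its values were -0.80, -0.78, -0.71 and -0.70. Only 0.0628% of the genes tested had a lower mean rho. The desmocollin DSC2 (mean rho -0.69 ± 0.05, SD over 4 plates), the desmoglein DSG3 (-0.69 ± 0.02), desmoplakin (-0.68 ± 0.05) and plakoglobin (-0.67 ± 0.02) followed, each with a mean rho that 0.176% to 0.251% of genes undercut. They differed from one another by less than the spread over plates. PKP3, a plakophilin found in most epithelia, was weaker at -0.39 ± 0.04, and its plate values lay between -0.44 and -0.35, just inside the limit of -0.3.

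DSG2, the desmoglein of simple epithelia, was just outside the limit. Its rho was -0.28 and -0.42 in the low-resolution and -0.20 and -0.25 in the high-resolution plates, so 1 plate of 4 met it. DSC3, the desmocollin of basal layers, had a rho of 0.04, 0.03, 0.10 and 0.07, close to 0 in every plate. PKP2, the plakophilin shared by simple epithelia and heart muscle, had positive values throughout, at 0.35 and 0.33 in the low-resolution and 0.17 and 0.14 in the high-resolution plates. The low-resolution values of PKP2 were above the high-resolution ones, a difference between experiments that was not tested.

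**Figure D2:**
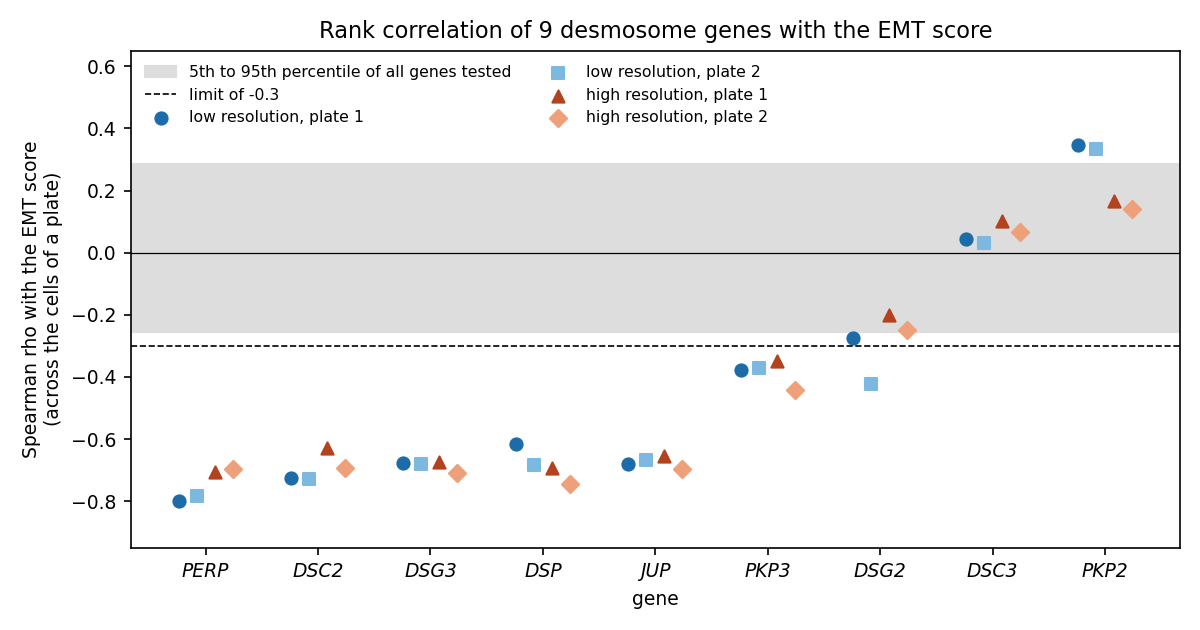
Spearman rho of 9 desmosome genes with the EMT score across the cells of each plate, 1 symbol per plate, with the limit of -0.3 dashed and the 5th to 95th percentile of the mean rho of all genes tested in grey (-0.257 to 0.286). PERP, DSC2, DSG3, DSP and JUP lie between -0.80 and -0.61, PKP3 between -0.44 and -0.35, and DSG2, DSC3 and PKP2 above them apart from 1 plate of DSG2.

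The members tracked the study's own EMT markers in the same way. With E-cadherin (CDH1), mean rho was 0.62 for DSC2, 0.61 for PERP, 0.60 for DSG3, 0.58 for JUP, 0.58 for DSP, 0.35 for PKP3 and 0.28 for DSG2. It was -0.01 for DSC3 and -0.20 for PKP2. With vimentin (VIM), a mesenchymal filament protein, mean rho ran from -0.52 (DSP) to -0.23 (PKP3) for the genes that fell, and was 0.18 for PKP2. CDH1 and VIM are themselves in the lists of the score. This tracking thus follows in part from the score and is not separate support.

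The epithelial and mesenchymal sides of the score were then separated. Given the mesenchymal score, mean rho with the epithelial score was still 0.62 for PERP, 0.49 for DSP, 0.48 for JUP, 0.44 for DSC2 and 0.43 for DSG3. Given the epithelial score, rho with the mesenchymal score was weak, at -0.03 for PERP and -0.20 for DSG3. PKP3 was the exception among those that fell, with 0.12 and -0.18. For PKP2, rho with the epithelial score given the mesenchymal one was -0.25.

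The mitochondrial share of a cell moved with the score, with a mean rho of -0.40, and so did the G2/M cell cycle score, with 0.23. PERP had a mean rho of 0.34 with the mitochondrial share and -0.38 with the G2/M score. PKP2 had -0.20 and 0.23. Given the mitochondrial share, the rho of PERP with the EMT score was -0.70, of DSC2 -0.67, of JUP -0.65, of DSG3 -0.64, of DSP -0.64 and of PKP3 -0.37. That of PKP2 averaged 0.19, from 0.29 in both low-resolution plates to 0.11 and 0.05 in the high-resolution plates. Given the depth of the cell, rho ranged from -0.76 (PERP) to 0.27 (PKP2).

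The size of these differences was read from cells ordered by the score within each plate. Between the lower and the upper tertile (3 equal groups of 90 to 98 cells), DSC2 went from 1.90, 1.88, 1.17 and 1.09 counts per 10000 to 0.191, 0.128, 0.126 and 0.120, in the order low-resolution plates 1 and 2, then high-resolution plates 1 and 2. All 4 upper-tertile values were below all 4 lower-tertile values. The mean log2 ratio was -3.39 ± 0.33 (SD, n = 4 plates), a level 10.5 times higher in the lower tertile. Since the score ordered the same cells, no test was made.

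DSG3 went from 2.33, 2.13, 1.35 and 1.34 to 0.405, 0.371, 0.116 and 0.154, a log2 ratio of -2.93 ± 0.50. DSP, which began at 8.82, 9.07, 6.35 and 5.57 and ended at 2.69, 2.35, 1.52 and 1.24, had a ratio of -1.97 ± 0.20. JUP (-1.81 ± 0.14), PERP (-1.81 ± 0.29) and PKP3 (-1.63 ± 0.19) came next. Thus the plaque genes and PERP kept more of their transcripts than the cadherins DSC2 and DSG3, and on average over plates all of them kept more than CDH1 (-4.63 ± 0.80) and EPCAM (-4.49 ± 0.63), an epithelial adhesion molecule, although both are themselves in the epithelial list of the score. Over all 7959 genes the median log2 ratio was 0.09, with 5th and 95th percentiles of -0.998 and 1.001.

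DSG2 went from 1.91, 1.54, 1.28 and 1.32 to 1.31, 0.909, 0.974 and 0.984, a log2 ratio of -0.53 ± 0.17 that was negative in 4 of 4 plates. DSC3 went from 0.472, 0.438, 0.456 and 0.391 to 0.587, 0.493, 0.525 and 0.469, a ratio of 0.24 ± 0.06 that was 0.05 in cells thinned to equal depth. PKP2 went from 0.147, 0.194, 0.238 and 0.294 to 0.534, 0.509, 0.463 and 0.388, a ratio of 1.15 ± 0.62 that was positive in 4 of 4 plates and ranged from 0.40 to 1.86. DSG2 and DSC3 thus sat within the 5th to 95th percentile of all genes, and PKP2 just above it.

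Finer steps gave the shape. From the first to the last quintile of cells DSC2 ended at 6.85% ± 1.38 (SD, n = 4) of its first level, DSG3 at 12.01% ± 2.93, DSP at 23.5% ± 3.44, PERP at 24.6% ± 3.42, JUP at 25.3% ± 2.09 and PKP3 at 29.6% ± 5.37. PERP was lower at each step in 4 of 4 plates, and DSC2, DSG3, DSP and JUP in 3 of 4. In the second quintile PERP and DSC2 had already reached 70.2% ± 15.9 and 65.4% ± 9.78, whereas DSG3 stood at 90.97% ± 15.9 and PKP3 at 96.03% ± 11.6. CDH1 was at 81.03% ± 5.24 there and ended at 2.62% ± 0.887. DSG2 ended at 68.2% ± 7.74 and DSC3 at 118.7% ± 13.9. PKP2 ended at 485.6% and 320.4% in the low-resolution and at 187.5% and 166.4% in the high-resolution plates, a mean of 290% with a wide spread.

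**Figure D3:**
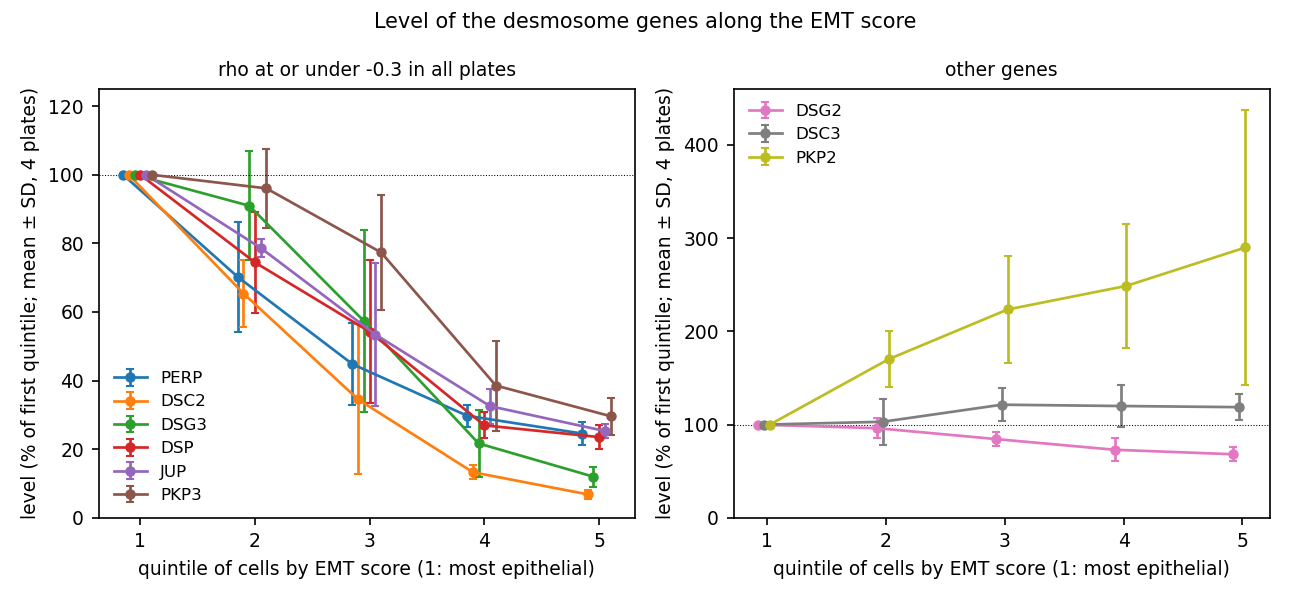
Level of 9 desmosome genes in each quintile of cells by EMT score, as a percentage of the first quintile (mean ± SD over 4 plates), with the genes that fell on the left and the others on the right. The left lines end between 6.85% and 29.6% of their first level, while DSG2 ends at 68.2%, DSC3 at 118.7% and PKP2 at 290%.

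Within each family the make-up of the transcripts changed along the score. DSC3 supplied 19.9%, 18.9%, 28.1% and 26.4% of desmocollin (DSC2 plus DSC3) transcripts in the lower tertile of cells and 75.4%, 79.4%, 80.6% and 79.5% in the upper tertile. The difference was 55.4 ± 3.61 percentage points (SD, n = 4). In low-resolution plate 1, for example, the exact 95% binomial intervals were 17.3 to 22.7 and 69.6 to 80.6. DSC3 itself changed little in level, so the desmocollin pool went from mostly DSC2 to mostly DSC3 as DSC2 was lost.

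The desmogleins behaved alike. DSG2 made up 44.97%, 41.9%, 48.8% and 49.6% of DSG2 plus DSG3 transcripts in the lower tertile and 76.3%, 70.98%, 89.4% and 86.5% in the upper tertile, a difference of 34.5 ± 5.24 points. Among plakophilin transcripts PKP2 went from 24.5%, 29.6%, 41.8% and 37.6% to 81.3%, 74.4%, 80.4% and 70.4%, a difference of 43.3 ± 10.27 points. Lower- and upper-tertile shares did not overlap in any of the 3 families. In the middle tertile the experiments stood apart in all 3 families. DSC3 was at 37.7% and 30.8% in the low-resolution and 71.3% and 61.2% in the high-resolution plates. DSG2 was at 44.8% and 48.9% against 67.5% and 68.7%, and PKP2 at 47.6% and 48.8% against 68.3% and 59.01%. Tertiles were cut within each plate, so the middle tertile is not the same range of scores in both experiments. In the middle quintile the CDH1 level was 0.815 and 0.886 in the low-resolution and 0.208 and 0.333 in the high-resolution plates. VIM was at 0.116 and 0.0613 against 0.946 and 0.594. Whether the shares differed between experiments at equal score was not tested.

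**Figure D4:**
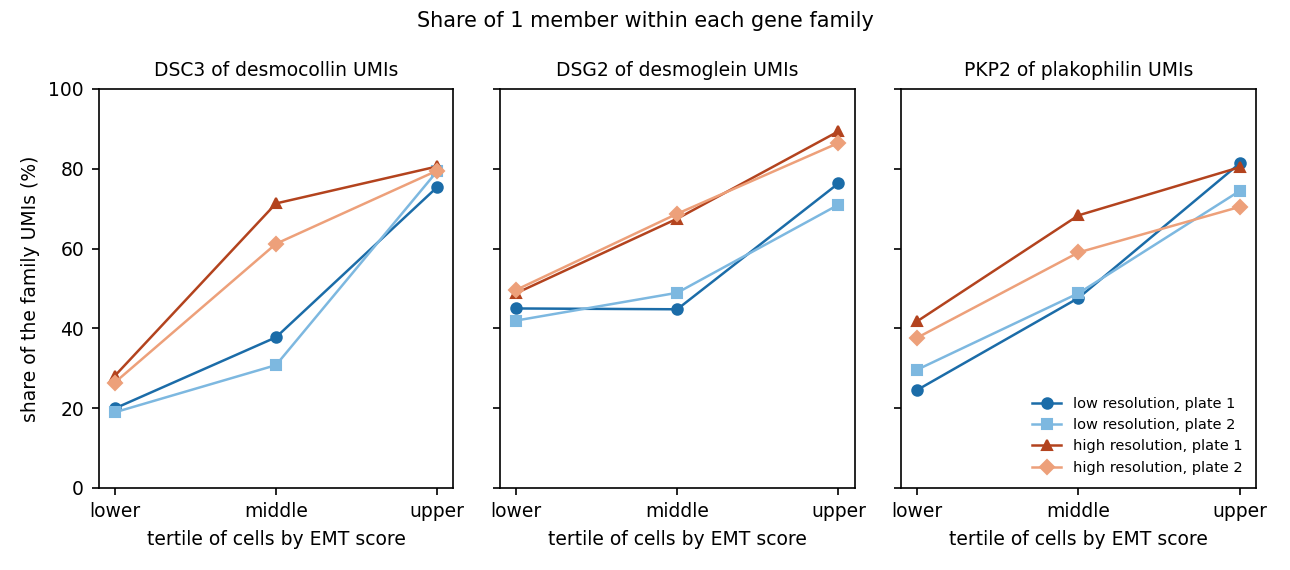
Share of DSC3 among desmocollin, DSG2 among desmoglein and PKP2 among plakophilin transcripts (%) in the lower, middle and upper tertile of cells by EMT score, 1 line per plate. In all 3 families every plate ends higher than it starts, with DSC3 going from 18.9% to 28.1% up to 75.4% to 80.6%.

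Co-expression was then read across cells. The 6 genes that fell were picked by their rho with 1 score in these same cells, so positive pairs among them follow in part from that choice. Pairs of other genes that fell were not measured, so the counts of pairs have no background to be set against. Among the 15 pairs formed by the 6 genes that fell, 15 had a positive rho in all 4 plates and 10 had a rho of at least 0.3 in all 4. The 10 were all the pairs within PERP, DSC2, DSG3, DSP and JUP, led by JUP with PERP (0.64 ± 0.02, SD over 4 plates), DSC2 with PERP (0.64 ± 0.08), DSP with PERP (0.64 ± 0.05) and DSG3 with DSP (0.63 ± 0.05). The 3 pairs among DSG2, DSC3 and PKP2 lay between -0.02 and 0.03. DSC3 did not track DSC2 (-0.02), and PKP2 did not track PKP3 (-0.06).

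Much of this was shared with the score. Once the rank of the EMT score was taken out, 0 of 15 pairs reached 0.3 in all 4 plates, although 13 of 15 stayed positive in all 4. DSG3 with DSP kept the highest partial rho at 0.31, with plate values from 0.26 to 0.34, followed by JUP with PERP (0.28), DSP with PERP (0.27) and DSC2 with PERP (0.25). PKP2 with PERP remained negative at -0.12. In cells thinned to 10000 transcripts 7 of the 15 pairs reached 0.3 in all plates. These values have no test.

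**Figure D5:**
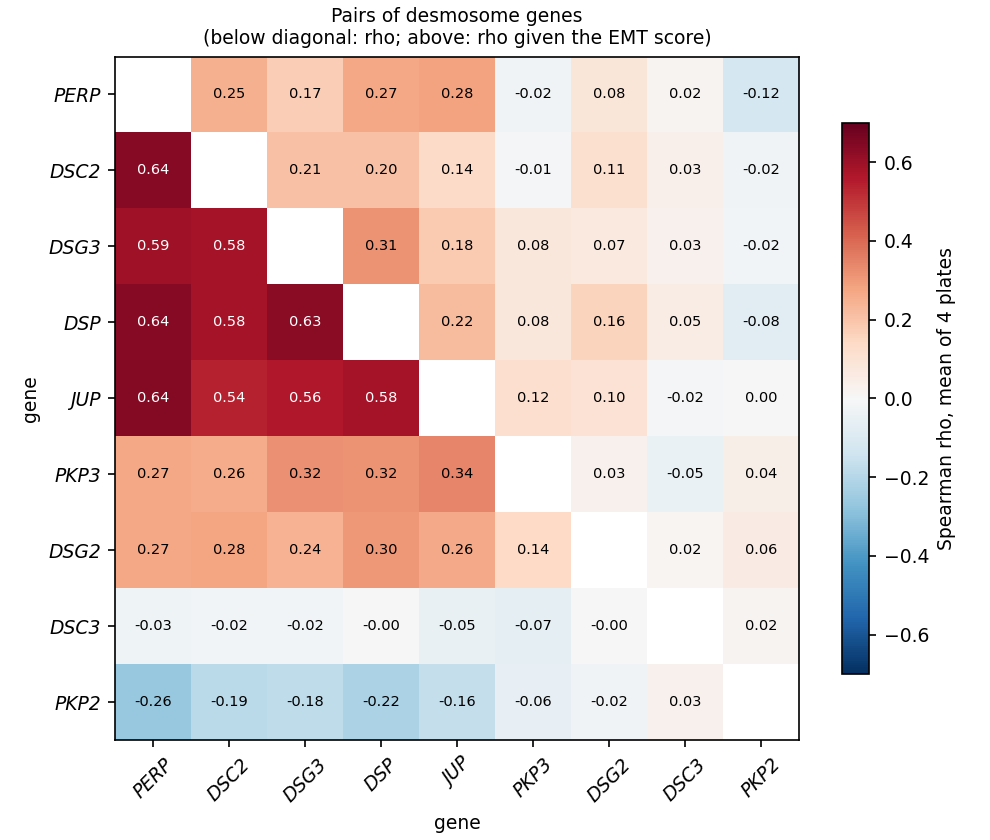
Spearman rho of each pair of 9 desmosome genes across cells, mean of 4 plates, below the diagonal as measured and above it given the EMT score, on a colour scale from -0.7 to 0.7. The block of PERP, DSC2, DSG3, DSP and JUP reads 0.54 to 0.64 below the diagonal and 0.14 to 0.31 above it.

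Cadherin pairs were also counted cell by cell in the thinned data. DSC2 and DSG2 were seen together in 41.1%, 41.4%, 19.4% and 25.8% of cells of the 4 plates, where the product of their separate shares is 38.02%, 36.4%, 17.6% and 21.8%. DSC3 and DSG3 were seen together in 26.8%, 22.01%, 17.6% and 13.7% of cells, against products of 26.4%, 23.1%, 16.8% and 14.5%. DSC2 and DSG2 were above the product in 4 of 4 plates. In each of these 8 cases the product lay within the exact 95% binomial interval of the measured share. That interval does not measure association, since share and product come from the same cells, and association was not tested. Before thinning, rho of DSC2 with DSG2 ran from 0.18 to 0.41 over plates, and that of DSC3 with DSG3 from -0.04 to 0.02.

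The genes whose levels went most with the mean of the 10 desmosome genes included FXYD3 (mean rho 0.74), SPINT2 (0.72), MAL2 (0.68) and CLDN4 (0.68), among 7950 genes outside the members and the score. CLDN4 is a tight junction claudin. The most opposite were MT2A (-0.67), a metallothionein, TIMP1 (-0.65), an inhibitor of matrix metalloproteinases, AKR1B1 (-0.64), SERPINE2 (-0.60) and ANXA5 (-0.59). FXYD3 was the single closest gene to PERP (0.78), JUP (0.67), DSC2 (0.66) and DSG3 (0.65). DSG2 was closest to DSP (0.30). The closest to PKP2 was ANXA5 (0.34) and the closest to DSC3 was CD70, at no more than 0.17.

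Neighbouring structures were read from lists. Of 8 other desmosome and cornified envelope genes 3 had enough transcripts, and the plakin partners PPL (mean rho -0.58) and EVPL (-0.40) fell while PKP4 did not (0.03). PPL is itself in the epithelial list of the score, as are CDH1, GRHL2, KRT7, KRT19 and MUC1 below. DSG1, DSG4 and DSC1 were near 0, with mean levels of at most 0.00356 counts per 10000. Of 7 keratins tested, the filaments to which desmoplakin attaches, KRT8 fell (-0.64), KRT7 averaged -0.35 without meeting the rule, and KRT5 (-0.19, near 0 in the low-resolution and under -0.35 in the high-resolution plates), KRT14 (0.08), KRT6A (-0.02, from 0.25 and 0.11 in the low-resolution to -0.21 and -0.26 in the high-resolution plates), KRT17 (-0.12) and KRT18 (-0.20) did not.

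Of 6 hemidesmosome genes, which anchor keratin to the matrix instead of to neighbours, 0 fell and 0 rose, and their median mean rho was 0.16. They went different ways, with DST positive (0.36) and COL17A1 negative (-0.34) in 4 of 4 plates. Of 9 adherens junction genes tested, CDH1 (-0.74) and P-cadherin CDH3 (-0.43) fell, and the catenin gene CTNNB1 (0.34), whose protein is related to plakoglobin, was positive. Among regulators, GRHL1, a grainyhead factor known to regulate the desmoglein gene DSG1, averaged -0.41 but was seen in under 20% of cells of a plate and was not tested.

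The experiments themselves differed in desmosome genes. Counts were summed over the cells of each plate and tested with edgeR's quasi-likelihood test over 12437 genes. Of the 9 desmosome genes tested 4, DSC2, DSG3, DSP and PERP, were lower in the high-resolution plates and 0 were higher, at an adjusted p under 0.05. Over all genes 12.4% were called, with 6.18% lower and 6.26% higher in the high-resolution plates. The median log2 difference was -0.30 over the 9 genes and -0.02 over all. In counts summed over a plate, fewer cells with a transcript and fewer transcripts per cell cannot be told apart. In cells thinned to 10000 transcripts, PERP was seen in 97.6% and 97.01% of low-resolution and 97.2% and 95.5% of high-resolution cells. Its mean count per thinned cell was 9.57 and 9.86 against 5.86 and 6.01, so PERP was lower in transcripts per cell. Shares of cells with DSC2 were 50.5% and 50.7% against 26.4% and 33.7%, and with DSG3 68.99% and 60.1% against 43.3% and 42.6%. With DSP they were 95.5% and 92.2% against 87.3% and 85.9%. These shares were not tested.

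DSG3 stood at 150.9 and 138.99 CPM (counts scaled to the same library total in every plate) in the low-resolution and at 72.7 and 68.5 in the high-resolution plates. The groups did not overlap. The log2 difference was -1.04 ± 0.11 (SE), with an edgeR adjusted p of 0.000236. DSC2 stood at 101.7 and 109.9 against 55.6 and 50.4 CPM (log2 difference -0.998 ± 0.12, edgeR adjusted p 0.000387), again without overlap. The 2 cadherins that fell most along the score were thus also those with the largest difference between experiments, both measured in the same cells.

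DSP stood at 582 and 637 against 366.7 and 314.4 CPM (log2 difference -0.84 ± 0.11, edgeR adjusted p 0.000863). PERP stood at 860 and 919 against 568 and 538 CPM (-0.69 ± 0.10, edgeR adjusted p 0.00161). Neither gene's groups overlapped, which holds for 57.3% of all genes tested. JUP and PKP3, although they fell along the score, were not called between experiments, with log2 differences of -0.20 ± 0.13 and -0.30 ± 0.17 and edgeR adjusted p of 0.342 and 0.281. Both sizes rest on single plates: with 1 plate left out, JUP ranged from -0.34 (without low-resolution plate 1) to -0.02 (without low-resolution plate 2) and PKP3 from -0.58 (without high-resolution plate 2) to -0.06 (without high-resolution plate 1), still without a call.

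DSG2 (153.3 and 132.04 against 116.3 and 118.1 CPM) differed by -0.28 ± 0.12 with an edgeR adjusted p of 0.128. DSC3 (-0.08 ± 0.13, 0.710) and PKP2 (0.13 ± 0.13, 0.552) were not called either. The lack of a call does not show that these levels were equal.

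Epithelial and mesenchymal genes moved with this result. Of the 59 epithelial genes of the score that could be tested, 28 were lower and 3 higher in the high-resolution plates, and of 65 mesenchymal genes 19 were higher and 3 lower. CDH1 differed by -0.68 ± 0.12 (edgeR adjusted p 0.00321), VIM by 0.94 ± 0.13 (0.00117) and FN1, the fibronectin gene, by 0.77 ± 0.11 (0.00127), while EPCAM, at -0.11 ± 0.11, was not called (0.566). Basal markers were higher in 3 of 5 (ITGA6, ITGB4 and KRT17, by 0.50 to 0.54) and lower in 0, and luminal markers were lower in 2 of 4 (KRT19 and MUC1) and higher in 0. The part of these genes in the desmosome result was not tested. Of 8 keratin genes 3 were higher (KRT17, KRT6A and KRT7) and KRT19 was lower. GRHL1 and GRHL2 were both lower, by -1.30 ± 0.28 (edgeR adjusted p 0.0113) and -0.87 ± 0.26 (0.0434). Band width, patch and the mix of rings that was sorted cannot be told apart here.

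The difference was also present among the most epithelial cells of each plate. In the lower tertile by score, the mean of the low-resolution plates was divided by that of the high-resolution plates. The ratio was 1.5 for DSP, 1.60 for PERP, 1.66 for DSG3 and 1.67 for DSC2, without overlap of the plates. DSG2 (1.32) and PKP2 (0.64, the opposite direction) did not overlap either, whereas JUP (1.01) and PKP3 (1.10) did. The share of all genes without overlap in a tertile was not computed. Over whole plates it was 57.3%, so lack of overlap does not by itself set these genes apart. In the upper tertile the ratio was 2.88 for DSG3, 1.83 for DSP, 1.29 for DSC2, 1.22 for PKP2 and 1.17 for PERP. The tertiles were cut within each plate and so are not the same range of scores in both experiments.

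By the names of the deposited tables, low-resolution plate 1 was sequenced on another flow cell than the other 3 plates. Among the 3 plates that shared a flow cell, DSC2, DSG3, DSP and PERP stayed lower in the high-resolution plates, by -1.05, -0.97, -0.90 and -0.73 on the log2 scale, with edgeR adjusted p of 0.00175, 0.00194, 0.00361 and 0.0065. In that comparison JUP differed by -0.34 and was still not called (0.133).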

How the data were processed

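SORT-seq, which counts the 3′ ends of transcripts in sorted cells, was applied to MCF10A cells. The deposited tables hold estimated counts: the authors counted unique molecular identifiers per gene and well and corrected them for identifiers drawn more than once (4096 possible). The submitters' processing notes name STAR 2.7.3a, hg38 and Seurat 4, and the annotation is not given in the sources used here. Plate totals ran from 11709628 to 14992348 transcripts.

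Spike-ins were removed, wells were kept where 2000 to 9000 features were detected and the mitochondrial share was under 40%, and counts were scaled to 10000 per cell and log-transformed. This left fewer cells than the study states, a difference that was not resolved. The EMT score was computed with a Python reimplementation of gene set variation analysis (Gaussian kernel, 1 fit per experiment). Spearman rho was computed within each plate, for genes detected in 20% of cells or more in each plate. For the experiments, counts were summed per plate, rounded and fitted with edgeR 4.0.16 (TMM, filterByExpr, quasi-likelihood test, Benjamini-Hochberg adjustment over all genes, threshold 0.05) without a block. DESeq2 1.42.0 was an alternative. Nothing states that patches with the same number belong together, and their deviations had a correlation of -0.02 over 12437 genes. Both steps were tested on simulated data. With 200 genes changed among 12437, edgeR recovered 99% of those changed by 1 and 38% of those changed by 0.5 on the log2 scale.

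The named genes are the 10 members, the 4 EMT markers of the study, fixed lists of neighbouring structures and regulators, and the 5 most similar and 5 most opposite genes to the members' mean. Results for some of these genes are not reported here. These members, lists and motifs were chosen with earlier results of these data known. Wells were not assigned to rings. The plates are separate patches, and the p-values measure the spread between them.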

Additional observations from a re-analysis of the deposited data

Results flagged for a closer look

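The wells over the mitochondrial limit (33 to 50 per plate) were outside every comparison above, and the desmosome genes were read in them as well. Per 10000 non-mitochondrial counts, the summed level of the 9 followed genes was 48.1 and 50.3 in the low-resolution and 40.8 and 41.3 in the high-resolution plates, above the limit that a count of 0 allows. In the wells that were kept it was 31.7, 32.8, 20.96 and 19.2, so the removed wells were 1.51, 1.53, 1.94 and 2.15 times higher.

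By gene, DSC2 (mean log2 difference 1.11 ± 0.44, SD over 4 plates) and DSG3 (1.10 ± 0.42) were highest in the removed wells relative to the kept ones, and PERP (0.96 ± 0.30), JUP (0.82 ± 0.19), DSP (0.75 ± 0.32), PKP3 (0.56 ± 0.25) and DSG2 (0.47 ± 0.09) were higher in 4 of 4 plates. PKP2 was lower in 4 of 4 plates (-1.14 ± 0.42), and DSC3 was lower in 2 of 4 (-0.18 ± 0.38). No test was made of these differences.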

How the results depend on the processing

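The count of 6 genes that fell along the EMT score ranged from 5 to 7 over 13 alternatives. It was 5 in cells thinned to 10000 transcripts, where PKP3 was seen in 16.9% of cells of high-resolution plate 1 and so was not tested. It was also 5 with a limit of 0.4, which PKP3 did not meet. With a limit of 0.2 it was 7, as DSG2 was added. It was 6 under the others, among them a mean z-score in place of the gene set score, no mitochondrial limit, cell cycle scores regressed out, and each plate left out in turn. Mean rho kept its sign for all 9 genes under 10 alternatives. Thinning brought it closer to 0 for JUP (-0.50), DSC2 (-0.55), DSG3 (-0.54), DSP (-0.58) and PKP3 (-0.26). The median rho over the 45 pairs was 0.07. It was 0.23 over the 36 pairs without PKP1, an alternative chosen after seeing the data, as were its values of 0.11 after thinning and 0.06 given the score. The 45-pair value could not be given after thinning, since PKP1 had no transcripts left. Log2 ratios between the tertiles kept their sign throughout, with smaller sizes between the lower and upper 50% of cells (DSC2 -2.55). Thinning moved the ratio of DSC3 from 0.24 to 0.05, DSG2 from -0.53 to -0.79, PKP3 from -1.63 to -2.13 and DSC2 from -3.39 to -3.81.

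Between experiments the same 4 genes, DSC2, DSG3, DSP and PERP, were called in each alternative that kept all plates. These were DESeq2 with its own test, and edgeR with other scaling, no filter, no mitochondrial limit, thinning or the replicate block. The highest adjusted p among them was 0.00306 (edgeR, PERP with no mitochondrial limit). With each plate left out in turn, the log2 differences of these genes lay between -1.09 (DSG3) and -0.63 (PERP). With the replicate block 4 members were called and the count over all genes went from 1547 to 2023. It was 929 after thinning and 982 to 1172 with a plate left out. Leaving out high-resolution plate 2 turned the uncalled log2 difference of DSC3 to 0.00011, and with other plates left out it reached -0.16. With a plate left out, a lone plate is assumed to vary like the other group. Thinning left 8 of the 9 genes, all but PKP3, with enough transcripts to be tested along the score.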
